A study of Homo sapiens with 47 samples.

Results

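The TGF-beta genes described here are 8 of the 58051 genes listed in 47 bulk RNA-seq libraries: the ligand genes *TGFB1*, *TGFB2* and *TGFB3*, the receptor genes *TGFBR1*, *TGFBR2* and *TGFBR3*, the latency gene *LTBP1* and the target gene *TGFBI*. They were taken by name, each name was matched to 1 Ensembl identifier, and the rule uses no measured value. The libraries came from WA09 (H9), an established human embryonic stem cell (hESC) line, in 3 independent differentiations called r1 to r3 that share their number across time points and fractions. At t0 the hESCs were undifferentiated and grown in mTESR1, a medium that contains a TGF-beta ligand. At 36h they were NMP-like cells (neuromesodermal progenitors) that had been given N2B27 without vitamin A, the WNT agonist CHIR-99021, rhFGF2, the retinoic acid receptor blocker AGN193109 and Y-27632, and from P1 to P10 they were replated at each passage in the same mixture, which gave pre-neural progenitors (PNPs) and neural crest (NC). No TGF-beta ligand or receptor inhibitor is named for the cultures sequenced here. Each time point had 3 libraries, except P9 with r1 and r2 alone. At P5 and P8, fractions enriched for epithelial (EPI) or mesenchymal (MES) cells were made by selective detachment with TrypLE, with 3 libraries each. The comparisons ask how the TGF-beta genes moved as hESCs became NMPs and then PNPs and NC, and how they differed between the cell types that arose side by side. All samples derive from 1 cell line.

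TGF-beta ligands are secreted in a latent form, bound to their propeptide and often to a latent TGF-beta binding protein such as LTBP1, which tethers the complex to extracellular matrix. Once released, the ligand binds the type II receptor TGFBR2, which activates the type I receptor TGFBR1 (ALK5) to phosphorylate SMAD2 and SMAD3. TGFBR3 (betaglycan) is a coreceptor that presents ligand, TGF-beta 2 in particular, to TGFBR2, and TGFBI is a secreted matrix protein first found as a transcript induced by TGF-beta. TGFBR1 also serves GDF11, a ligand of tail bud patterning, and in the embryo TGF-beta signals are known for their part in epithelial to mesenchymal transition and neural crest development.

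The 5′ flanks of the 3 ligand genes and of *TGFBI* are shown because the courses of these genes in time are compared throughout. The sequences are from RefSeq (GRCh38.p14), are written 5′ to 3′ on the strand of the gene and end at the base before the RefSeq start site, except that of *TGFBI*, which ends before the more upstream start of GENCODE 29. The RefSeq start of *TGFB2* lies upstream of the GENCODE 29 start. All 8 genes matched a RefSeq entry, and *TGFBR1*, *TGFBR2*, *TGFB3* and *LTBP1* had several start sites, so that the first listed was taken for *TGFB3*. Capitals mark 3 motifs searched on both strands, CAGAC (the SMAD-binding element, GTCTG on the other strand), CACGTG (the palindromic E-box) and GGGCGG (the GC box, CCGCCC on the other strand).
TGFB1, chr19:41353923-41354172, minus strand: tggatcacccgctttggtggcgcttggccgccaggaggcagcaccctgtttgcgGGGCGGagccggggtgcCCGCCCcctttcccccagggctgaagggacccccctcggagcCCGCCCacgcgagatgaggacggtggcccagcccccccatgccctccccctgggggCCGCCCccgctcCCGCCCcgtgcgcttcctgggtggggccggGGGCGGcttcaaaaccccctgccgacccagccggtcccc
TGFB2, chr1:218345086-218345335, plus strand: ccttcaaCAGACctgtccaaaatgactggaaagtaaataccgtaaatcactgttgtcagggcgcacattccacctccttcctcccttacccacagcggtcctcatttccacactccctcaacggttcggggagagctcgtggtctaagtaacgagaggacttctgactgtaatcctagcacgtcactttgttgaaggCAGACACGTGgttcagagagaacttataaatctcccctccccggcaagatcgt
TGFB3, chr14:75983012-75983261, minus strand: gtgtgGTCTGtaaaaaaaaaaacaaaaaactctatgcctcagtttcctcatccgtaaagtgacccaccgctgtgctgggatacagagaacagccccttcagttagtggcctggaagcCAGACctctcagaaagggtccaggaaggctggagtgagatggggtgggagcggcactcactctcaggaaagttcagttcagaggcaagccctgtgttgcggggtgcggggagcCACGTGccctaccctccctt
TGFBI, chr5:136028738-136028894, plus strand: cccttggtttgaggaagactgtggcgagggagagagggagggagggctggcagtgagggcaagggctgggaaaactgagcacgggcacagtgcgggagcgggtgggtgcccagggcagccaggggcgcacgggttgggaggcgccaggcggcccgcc

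The flank of *TGFB1* held 6 GC boxes, from 196 to 39 bases before the start site, and neither of the other motifs. Those of *TGFB2* and *TGFB3* held no GC box, 2 SMAD-binding elements and 1 E-box each. In *TGFB2* the elements began 243 and 53 bases before the start site, and the E-box, at 49 bases, shared its first base with the nearer element. In *TGFB3* the elements began at 245 and 133 bases and the E-box at 20 bases, but the window before its other RefSeq start site held none of the 3 motifs. The 157 bases shown for *TGFBI* held none of the 3, nor TGANTCA, the AP-1 motif, which says only that these letters are not in this window. Of 34943 RefSeq windows of 250 bases, 38.01% held CAGAC, 6.32% CACGTG, 42.55% GGGCGG and 6.59% TGANTCA. The matches are a description of letters and not of binding.

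The expected counts of the libraries summed to between 13029491 and 64082859, with a median of 47292229, and no pair of replicates agreed within sampling noise. The summed TPM, the transcript share corrected for length, of 4 pluripotency genes ran from 2992 to 3361 at t0, from 3.58 to 10.14 at P8 and from 5.48 to 16.26 at P10. In the fractions, *SOX2* was at 213.6 ± 38.6 TPM in P5 EPI and 65.7 ± 30.4 in P5 MES, and *SNAI2* at 36.3 ± 12.0 and 105.8 ± 23.5 (mean ± SD, n = 3), so each fraction held the markers of both. *CDH1*, which encodes E-cadherin, was at 0.12 TPM in P5 EPI and 0.55 in P8 EPI, so the epithelial label does not rest on it. Markers of endothelium summed to at most 2.45 TPM in any fraction. The 3 smooth muscle markers summed to 73.41 to 93.87 TPM in P5 EPI, 150.2 to 375.3 in P5 MES, 43.83 to 562.2 in P8 EPI and 51.34 to 987.0 in P8 MES, most of it *ACTA2*, with *CNN1* at 3.6 to 57.95 TPM and *MYH11* at or under 0.47 TPM in these libraries. P10 r1 stood apart from P10 r2 and r3, with 427.1 TPM of pre-neural markers against 5.24 in the lowest. These are bulk samples, so fewer cells of a type and less RNA per cell cannot be told apart.

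*TGFB1* (chr19:41301587-41353911, minus strand, GRCh38) encodes the ligand that most adult tissues make, and it was the ligand gene of the early cultures. Its level at t0 was 7.18, 5.71 and 6.38 TPM in r1, r2 and r3, and at 36h it was 21.53, 38.06 and 13.94 TPM. All 36h libraries lay above all t0 libraries, but the difference missed the threshold (log2 fold change 2.22 ± 0.72, edgeR adjusted p = 0.044). To pass, a gene needed a Benjamini-Hochberg adjusted p under 1% in edgeR's quasi-likelihood test over all genes, a 2-fold change or more, and 100 or more normalized counts on average. Log2 fold changes are given ± SE. At P2 the level was 24.04, 33.57 and 40.48 TPM, which passed against t0 (2.60 ± 0.73, edgeR adjusted p = 0.0058). At P3 the differentiations split, with 66.49 TPM in r1 against 8.14 and 10.31 in r2 and r3, and by P5 they met again at 5.14, 4.97 and 5.1 TPM. From 36h to P5 *TGFB1* fell without overlap of the libraries (-2.87 ± 0.74, edgeR adjusted p = 0.0044). Without r2 or without r3 neither that fall (edgeR adjusted p = 0.082 and 0.027) nor the rises over t0 at P2 and P3 passed, and the rise at P3 also needed r1. Ordered by mean, the whole cultures ran from 32.7 TPM at P2 through P3, P1, 36h, P9, P10, P8, t0, P4, P5 and P7 to 3.91 TPM at P6, and only 36h and P9 were neighbours whose libraries did not overlap. *TGFB1* shares 215 of its 3238 exonic bases (6.64%) with the antisense gene *HNRNPUL1*, which was at 233 to 370 TPM, and the strand setting of the counting is not given in the sources used here. Exons of *TGFB2* and *TGFB3* overlap *TGFB2-OT1* (at most 1.81 TPM) and *TGFB3-AS1* (at most 0.46 TPM).

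*TGFB2* (chr1:218346235-218444619, plus strand) encodes the ligand that depends most on the TGFBR3 coreceptor, and it took the place of *TGFB1* as the most abundant ligand transcript. It stood at 0.7, 0.37 and 0.88 TPM at t0 and at 0.1, 0.19 and 0.1 TPM at 36h, where the libraries held 6.14, 16.2 and 7.50 normalized counts. At P2 it was at 5.12, 5.36 and 2.95 TPM and at P3 at 17.5, 26.16 and 13.49 TPM, so that the libraries of P3, P2 and P1 did not overlap. P1 was uneven, with 0.11 TPM in r1 against 1.34 and 1.15 TPM in r2 and r3. The level reached 52.24, 47.23 and 25.35 TPM at P5 and 84.74, 98.97 and 41.3 TPM at P8, the group with the highest mean (75.0 ± 30.0 TPM, n = 3). From 36h to P5 *TGFB2* rose more than any other member (8.29 ± 0.88, edgeR adjusted p = 4.0e-07). Against t0 it passed at every time point from P2 on, with log2 fold changes from 3.18 ± 0.69 at P2 to 7.10 ± 0.80 at P8, of which that at P2 was lost without r1 or without r2. Both P9 libraries, at 23.99 and 24.1 TPM, lay below each P8 library, without passing (-1.68 ± 0.71, edgeR adjusted p = 0.13). P10 spread widely, with 66.25, 12.06 and 104.5 TPM, and overlapped both.

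*TGFB3* (chr14:75958099-75982991, minus strand), the ligand gene known from palate fusion, was the last of the 3 to pass against t0. It was under 0.6 TPM in the 3 libraries of t0 (0.49, 0.59 and 0.26 TPM) and at 1.9, 3.22 and 3.41 TPM at P5. P7 held 1 high library, with 1.14, 3.35 and 16.41 TPM, and P8 held 1.74, 3.49 and 5.19 TPM. At P9 both libraries were high, at 15.24 and 14.51 TPM, and at P10 the values were 2.74, 20.36 and 29.51 TPM with r1 low. Against t0 *TGFB3* passed at P7 (3.14 ± 0.69), P9 (5.25 ± 0.76) and P10 (4.59 ± 0.72), and the call at P7 was lost without r2 or without r3. The step from P8 to P9 was 2.79 ± 0.69 (edgeR adjusted p = 0.014), just outside the threshold, and DESeq2 with the same block called it (adjusted p = 0.0014). No neighbours in the order of its 12 time points were free of overlap.

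The 3 ligand genes together were at 7.52 ± 0.85 TPM at t0 and 87.2 ± 27.8 TPM at P8 (mean ± SD, n = 3), given as levels without a test. *TGFB1* held 85.4% of the summed ligand TPM at t0, 92.7% at 36h and 95.2% at P1. *TGFB2* held 0.51% at 36h, 47.3% at P3, 82.7% at P5 and 88.2% at P6. Within P3 the share of *TGFB2* ran from 20.7% to 71.1% between the differentiations, and from P4 to P8 each library had more *TGFB2* than *TGFB1* and *TGFB3*. At P9 the ligands were mixed, with 23.3% *TGFB1*, 47.4% *TGFB2* and 29.3% *TGFB3*. In P10 the share of *TGFB3* ran from 3.64% to 53.3%.

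**Figure D1:**
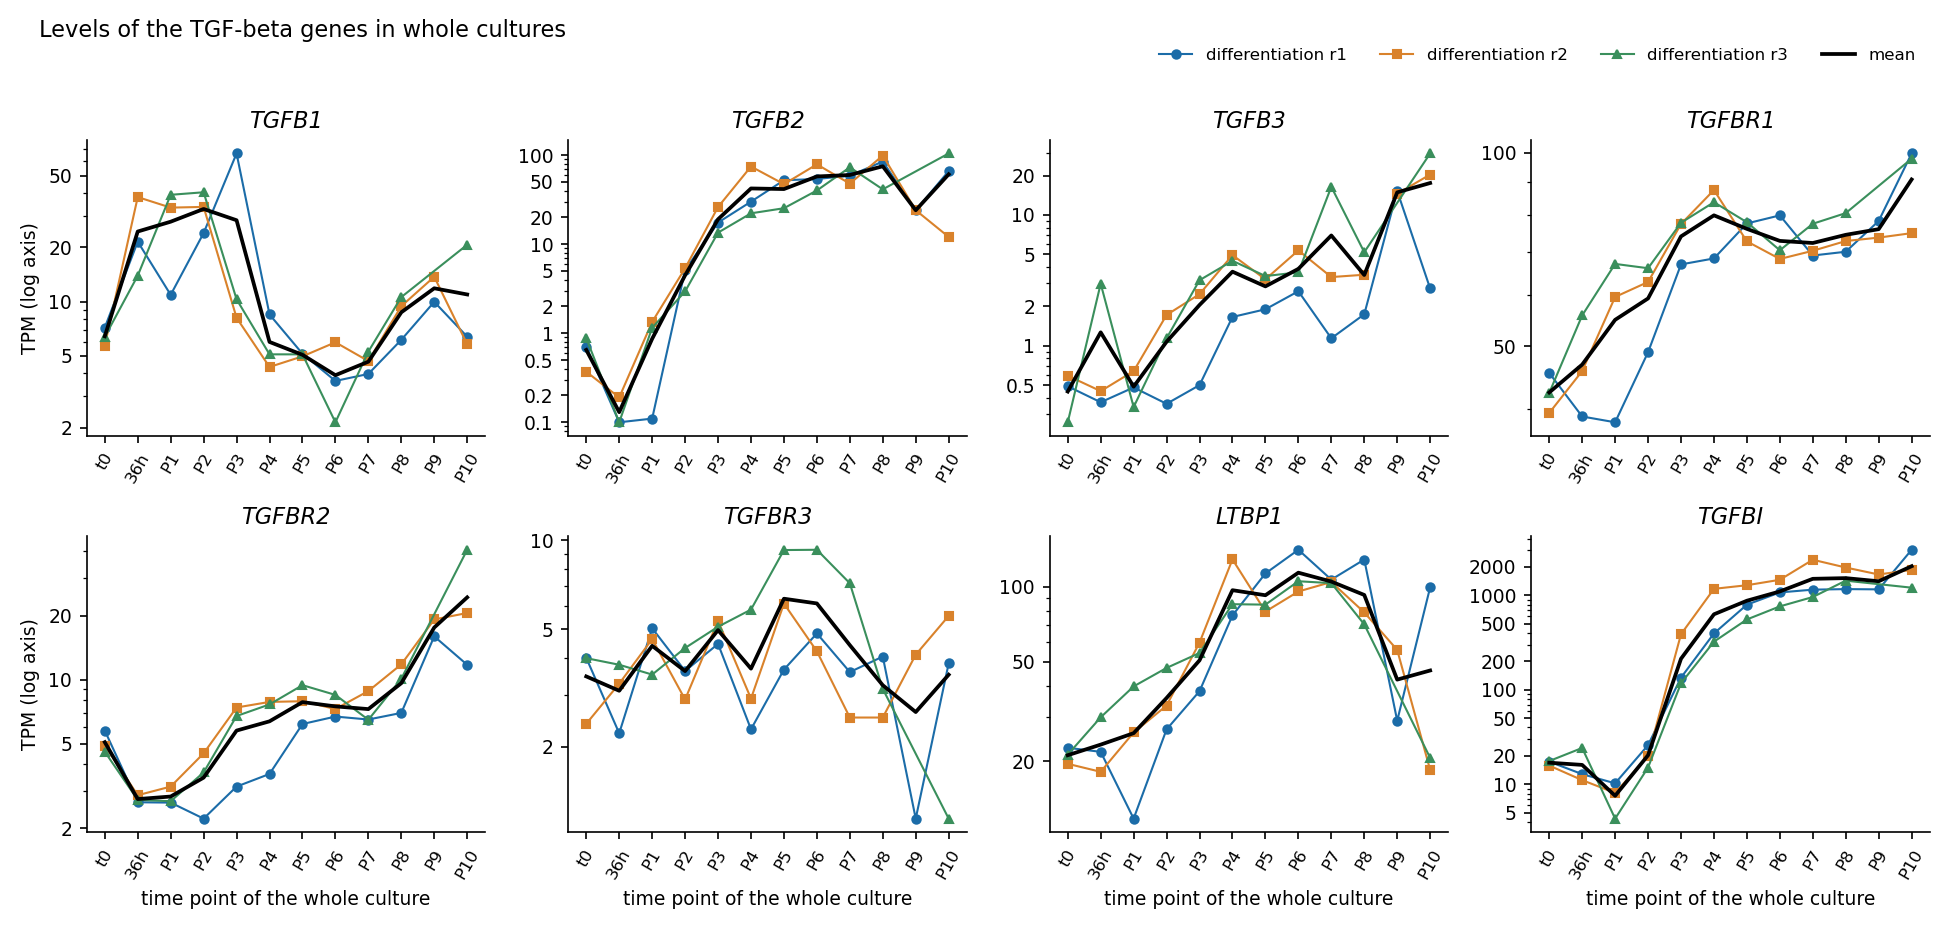
TPM on a log axis for the 8 genes over the 12 time points of the whole cultures, with 1 line per differentiation (the r3 line joins P8 to P10, since P9 has r1 and r2) and the mean in black. *TGFB1* peaks early and is lowest at P6 (3.91 TPM), while the means of *TGFB2* (75.0 TPM) and *TGFBI* (1524 TPM) at P8 are above those at P1 (0.87 and 7.57 TPM).

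**Figure D2:**
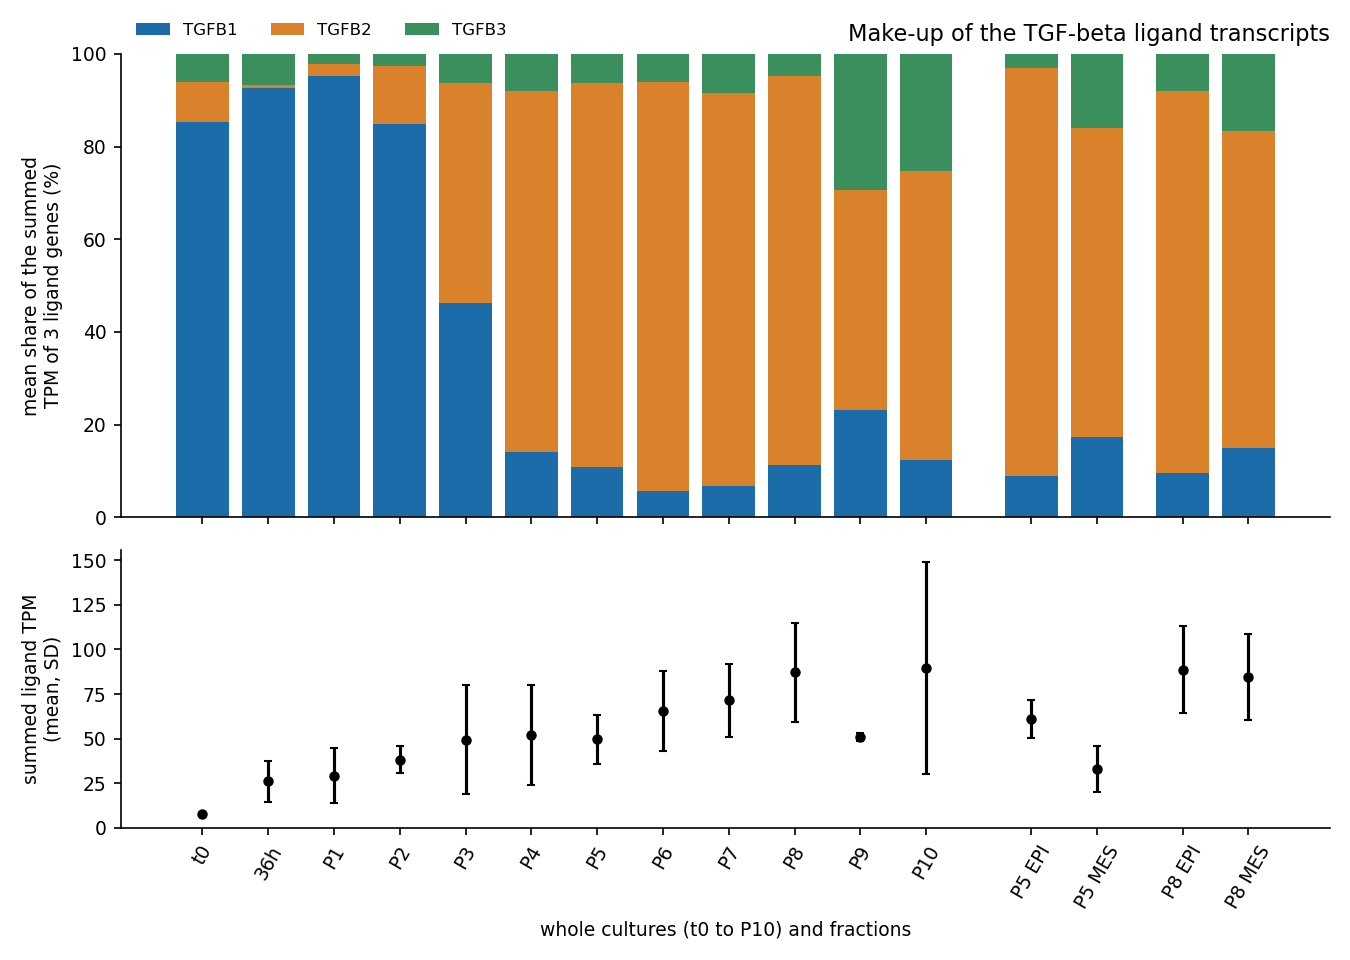
Upper panel, mean share of each ligand gene in the summed ligand TPM of a library (%), for whole cultures and fractions; lower panel, the summed TPM with its SD. The bars turn from *TGFB1* (95.2% at P1) to *TGFB2* (88.2% at P6), and *TGFB3* reaches 29.3% at P9.

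The type I receptor gene *TGFBR1* (chr9:99104038-99154192, plus strand) was the most abundant receptor gene in every group and had the smallest ratio of highest to lowest mean over the whole cultures (2.14). It was at 45.46, 39.39 and 42.32 TPM at t0 and at 77.63, 72.8 and 77.96 TPM at P5. From 36h to P5 the log2 fold change was 0.58 ± 0.15, with an edgeR adjusted p of 0.0036 but less than a 2-fold change. At P10 the levels of 99.73, 74.98 and 97.87 TPM were all above t0, and this was the 1 time point that passed against t0 (1.01 ± 0.15, edgeR adjusted p = 4.0e-06), a call lost without r1 or without r3.

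*TGFBR2* (chr3:30606502-30694142, plus strand), which encodes the receptor that ligand meets first, had its lowest mean at 36h and its highest at P10. Its levels were 5.76, 4.89 and 4.58 TPM at t0 and 2.65, 2.86 and 2.72 TPM at 36h, without overlap, which did not pass (-0.96 ± 0.28, edgeR adjusted p = 0.023). From 36h to P5, where it stood at 6.18, 7.91 and 9.41 TPM, it rose (1.34 ± 0.28, edgeR adjusted p = 7.2e-04), a call that was lost without r2 (adjusted p = 0.038) or without r3 (0.014). P8 had 6.97, 11.79 and 10.09 TPM, P9 had 15.96 and 19.17 TPM and P10 had 11.73, 20.55 and 40.74 TPM. Both P9 libraries exceeded every P8 library, and against t0 the gene passed at P9 (1.72 ± 0.30) and P10 (2.06 ± 0.28), that at P9 being lost without r2, a fit that has 1 P9 library and takes its spread from the other groups. The ratio of *TGFBR1* to *TGFBR2* in TPM was 8.40 ± 0.74 at t0, 19.5 ± 5.33 at P1, 10.0 ± 2.25 at P5 and 4.38 ± 0.75 at P9.

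*TGFBR3* (chr1:91680343-91906335, minus strand), the betaglycan gene, did not pass against t0 at any of the 11 later time points. Its whole-culture libraries ran from 1.14 to 9.3 TPM, with the highest mean at P5 (3.65, 6.11 and 9.28 TPM) and the lowest at P9 (1.14 and 4.1 TPM). No neighbours in its order of means were free of overlap, and at P5 its libraries spanned most of its range over the whole course.

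*LTBP1* (chr2:32946972-33399509, plus strand), the gene of the latent complex, was at 22.64, 19.53 and 21.25 TPM at t0 and reached its highest mean at P6, with 140.61, 95.7 and 105.19 TPM. It passed against t0 from P4 to P8, with log2 fold changes from 1.94 ± 0.45 at P5 to 2.16 ± 0.46 at P6. From 36h to P5 it rose too (1.75 ± 0.45, edgeR adjusted p = 0.0043). That call was lost without r2 (edgeR adjusted p = 0.076) or without r3 (0.027), and so were all 5 calls against t0. At P8 the libraries held 128.49, 78.92 and 70.67 TPM and at P9 29.07 and 55.85 TPM, without overlap. At P10 the values were 99.46 TPM in r1 and 18.46 and 20.63 TPM in r2 and r3, so that r1 alone kept a level like that of P8. One antisense gene, *AC019127.1*, overlaps an exon of *LTBP1*.

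*TGFBI* (chr5:136028895-136063818, plus strand), the matrix target gene, reached the highest TPM of the set. It was at 17.41, 15.81 and 17.66 TPM at t0 and lowest at P1, with 10.26, 8.12 and 4.34 TPM. From P2 (26.02, 19.9 and 15.08 TPM) to P3 (134.92, 388.68 and 117.62 TPM) it rose (3.20 ± 0.44, edgeR adjusted p = 0.0040). It was 1 of 2 genes that passed in this step among 21649 tested (0.00924%), and no member passed in another step between neighbouring time points. The share of genes that passed was 2.72% from t0 to 36h, 1.2% from 36h to P1, 0.0277% from P1 to P2, 1.21% from P8 to P9 and 0.0% in the other steps. The call was lost without the block, without r2 and without r3. At P5 the level was 797.9, 1282.23 and 556.7 TPM and at P10 3041.68, 1864.22 and 1207.69 TPM. It rose from 36h to P5 (5.42 ± 0.49, edgeR adjusted p = 4.7e-08), and against t0 it passed at all 8 time points from P3 to P10, with 6.79 ± 0.52 at P10, also without r1, r2 or r3. Within each time point from P3 to P9, r2 held the highest library.

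Against t0, 30 of 88 pairs of a member and a later time point passed, all of them higher. At 36h 0 of the 8 members passed in edgeR's test (3 had an unadjusted p under 0.05, as did 5635 of all genes, and DESeq2 called *TGFB1* and 3.93% of genes), where 2.72% of 21649 genes tested passed. At P1 0 passed as well (4 had an unadjusted p under 0.05, as did 9296 of all genes, and DESeq2 called 2 and 10.2% of genes), where 8.79% of genes did. From P2 on, the members that passed are set beside the share of all genes that passed as higher: 2 at P2 (5.69%), 3 at P3 (5.55%), P4 (5.86%), P5 (5.96%), P6 (6.15%) and P8 (7.38%), 4 at P7 (6.78%) and P9 (9.92%), and 5 at P10 (9.24%). These comparisons share the t0 libraries. By gene, *TGFB2* passed at 9 of the 11 time points, *TGFBI* at 8, *LTBP1* at 5, *TGFB3* at 3, *TGFB1* and *TGFBR2* at 2, *TGFBR1* at 1 and *TGFBR3* at 0. The 30 pairs became 33 without r1, 20 without r2 and 21 without r3.

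From NMPs at 36h to P5, 5 of 8 members passed, where 8.36% of 21649 genes did (3.55% higher and 4.81% lower): *TGFB2*, *TGFBI*, *LTBP1* and *TGFBR2* rose and *TGFB1* fell. The median log2 fold change of the 8 was 1.31, against -0.06 over all genes tested. The comparison shares its 36h libraries with that of 36h against t0. Of 14 tested genes for latency and activation, 2 rose and 1 fell. *EMILIN1*, a matrix protein that restrains proTGF-beta processing, went from 4.68 ± 1.91 to 56.5 ± 30.4 TPM (log2 fold change 3.41 ± 0.50) and *FBN1*, which encodes the fibrillin of microfibrils, from 7.60 ± 3.77 to 25.3 ± 3.91 TPM (1.74 ± 0.35). *ITGB8*, an integrin subunit that activates latent TGF-beta, fell from 5.21 ± 1.02 to 1.23 ± 0.52 TPM. The median log2 fold change of that list was 0.19.

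Among 10 coreceptor and inhibitor genes, 2 rose from 36h to P5, both small proteoglycans that bind TGF-beta. *BGN* (biglycan) went from 21.7 ± 9.59 to 247.7 ± 83.2 TPM (log2 fold change 3.36 ± 0.57), and *DCN* (decorin), with 1 to 4 counts in the 36h libraries, was at 27.9, 144.63 and 147.35 TPM at P5. Of 16 SMAD and feedback genes, *SMAD3*, the receptor-activated SMAD, rose from 11.9 ± 5.49 to 52.5 ± 3.86 TPM (2.21 ± 0.25). The corepressor genes *TGIF1* (-1.87 ± 0.34) and *SKIL* (-1.81 ± 0.37) fell. Of 20 response genes, 4 rose and 1 fell. *COL3A1* went from 0.46 ± 0.36 to 133.7 ± 26.8 TPM, *ACTA2* from 10.9 ± 3.97 to 121.2 ± 23.4 TPM and *SPARC* from 267.7 ± 9.91 to 2757 ± 1445 TPM, and the fall was that of *HMOX1* (-2.31 ± 0.49), a gene of haem breakdown. The median log2 fold changes were -0.22, -0.35 and 0.72 for these 3 lists. Without r3 the counts that passed were 1 for latency and activation, 0 for coreceptors and inhibitors, 3 for SMAD and feedback and 1 for response genes, and without r2 they were 1, 1, 1 and 3. Over all genes, 958 of 21012 passed without r3 and 765 of 22591 without r2, against 1809 of 21649 with all libraries. The summed TPM of 8 neural crest and mesenchymal markers ran from 30.65 to 79.99 at 36h and from 181.2 to 492.1 at P5, and 3 of the 8 rose. The 4 pluripotency markers all fell, from 835.8 to 2352 TPM at 36h to between 20.37 and 42.43 at P5. Of 4 NMP markers (252.8 to 935.7, then 175.1 to 369.5 TPM) 2 fell, *TBXT* and *CDX1*. Of 5 pre-neural markers (284.8 to 512.5, then 308.1 to 580.4 TPM) 2 fell, *CDH1* and *EPCAM*, which were at 152.3 and 238.2 TPM at t0. *CDX2* and *NKX1-2* are in both lists, so the 2 are not independent. Most of the NMP sum at P5 was *CDX2*, at a mean of 261.2 TPM. Of 5 paraxial mesoderm markers (12.13 to 633.0, then 57.11 to 95.21 TPM) *TBX6* and *MSGN1* fell and *PAX3* rose. The sum at P5 was nearly all *PAX3* (67.3 TPM), with *TBX6*, *MSGN1*, *MEOX1* and *TCF15* at 1.09, 0.96, 0.56 and 0.43 TPM. Of 3 smooth muscle markers (16.7 to 24.49, then 97.95 to 143.2 TPM) 1 rose, and of 3 endothelial markers (32.11 to 73.83, then 0.2 to 0.52 TPM) *KDR* fell. The endothelial sum at 36h was nearly all *KDR* (56.1 TPM), which was at 45.2 TPM in the undifferentiated hESCs of t0. *PECAM1* and *CDH5* were at 0.08 and 0.04 TPM at 36h. The 4 neuron markers, none of which passed, summed to 46.85 to 84.28 and 34.11 to 152.3 TPM. The part of these markers in the differences was not tested.

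Between t0 and 36h, outside the members, *MMP2* (a matrix protease), *BGN* and *SNAI2* were the genes of the pathway lists that passed, all higher at 36h (log2 fold changes 1.84, 2.37 and 4.37), and they were chosen after their values were seen. None of them passed without r2 or without r3. *SNAI2*, a repressor of epithelial genes, was uneven, at 2.33, 11.45 and 64.4 TPM. Of the cell type markers, *TBXT*, *CDX1*, *CDX2*, *MSGN1* and *SNAI2* passed, all higher, and without r2 or without r3 there was 1 NMP marker that passed and none of the paraxial mesoderm or neural crest lists. The 4 NMP markers summed to 14.26 to 16.98 TPM at t0 and 252.8 to 935.7 at 36h, the 5 paraxial mesoderm markers to 7.28 to 9.68 and 12.13 to 633.0 TPM, and the 4 pluripotency markers to 835.8 to 2352 TPM at 36h. Their part in these values was not tested.

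Late in culture no member passed. P8 against P5 gave 0 of 8 members and 2 of 21649 genes (0.00924%), with 2873 genes at an unadjusted p under 0.05, 1 member among them (*TGFBI*, 0.91 ± 0.41, edgeR adjusted p = 0.33), and DESeq2 called 145 genes (0.67%) and no member. In that comparison the 3 smooth muscle markers summed to 97.95 to 143.2 TPM at P5 and 172.5 to 549.7 at P8. All 3 were higher at an unadjusted p under 0.05 without passing (median 1.73). At that p, 4 of 8 neural crest markers were higher and 1 lower, and 12 and 0 of 20 response genes. The same counts were 0 and 1 of 4 pluripotency, 0 and 1 of 4 NMP, 1 and 1 of 5 pre-neural, 1 and 0 of 5 paraxial mesoderm, 1 and 0 of 4 neuron and 0 and 0 of 3 endothelial markers. P9 against P8 gave 0 of 8 members and 262 genes (1.21%), with 5674 genes at an unadjusted p under 0.05, 4 members among them: *TGFB3* and *TGFBR2* (1.02 ± 0.30, edgeR adjusted p = 0.034) above 0 and *TGFB2* and *LTBP1* (-1.07 ± 0.51, adjusted p = 0.18) below. The libraries of these 4 did not overlap, which held for 35.2% of genes with 100 or more counts, and DESeq2 called *TGFB3* and 3.64% of genes. P10 against P8 gave 0 of 8 members and 19 genes (0.0878%), with 3575 genes at an unadjusted p under 0.05, 4 members among them, while DESeq2 called *TGFBR2* and 282 genes (1.3%). The groups overlapped for each member there, against 9.83% of genes without overlap. Both comparisons share the P8 libraries. Without P10 r1, the library that stood apart, 834 genes and 3 members passed: *TGFB3* (2.58 ± 0.63) and *TGFBR2* (1.64 ± 0.27) higher and *LTBP1* lower (-2.19 ± 0.37). That library was singled out by its own expression, so leaving it out can widen the difference by choice, and these calls are a description. The summed TPM of 5 pre-neural epithelial markers ran from 162.0 to 694.9 at P8, from 16.51 to 16.73 at P9 and from 5.24 to 427.1 at P10. The markers of neural crest and mesenchyme summed to 149.9 to 880.2, 1125 to 1134 and 246.9 to 1014 TPM. Of these 8 markers, 3 were higher and 0 lower in P9 against P8 at an unadjusted p under 0.05 (median 0.76). In P10 against P8, 2 were higher and 3 lower (median -0.43). The means of *TWIST1* were 80.2, 493.9 and 322.3 TPM and those of *SOX9* 98.3, 30.8 and 17.9 TPM. The markers of endothelium, by mean mostly *KDR*, summed to at most 0.88, 14.95 and 12.9 TPM. The 3 smooth muscle markers summed to 172.5 to 549.7 TPM at P8, 23.38 to 26.83 at P9 and 5.46 to 166.2 at P10, and all 3 had log2 fold changes below 0 at an unadjusted p under 0.05 in both comparisons (medians -3.99 and -2.40). The 4 neuron markers summed to 27.99 to 93.01 TPM at P8, 53.64 to 65.05 at P9 and 117.8 to 231.4 at P10, where the groups P8 and P10 did not overlap (median log2 fold change 1.14, 2 of 4 at an unadjusted p under 0.05). The 4 NMP markers summed to 59.42 to 371.0, 10.54 to 15.69 and 3.08 to 218.9 TPM, with *CDX2* at a mean of 173.7, 7.25 and 65.7 TPM. The sums of the pluripotency and paraxial mesoderm markers overlapped between P8 and both later groups. The paraxial mesoderm sums were mostly *PAX3*, at a mean of 128.1, 107.6 and 103.2 TPM. Their part in these values was not tested.

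The list gene that passed from P8 to P10 was *BAMBI*, a pseudoreceptor that blocks TGF-beta family signalling. It was at 2.15, 11.67 and 15.15 TPM at P8, at 321.97 and 183.09 TPM at P9 and at 14.99, 198.08 and 413.95 TPM at P10 (P10 against P8, 4.34 ± 0.78, edgeR adjusted p = 0.0095). In P9 against P8, *BAMBI* (5.50 ± 0.86) and *CD109*, a coreceptor that dampens signalling (2.28 ± 0.52), rose and *ACTA2*, smooth muscle actin, fell (-4.35 ± 0.92). These were the genes of the pathway lists that passed, and they were chosen after their values were seen. None of these calls held without r2, without r3 or without the replicate block, and without r2 the P9 group is 1 library, assumed to vary like the other groups. *ACTA2* stood at 286.93, 506.99 and 164.84 TPM at P8 and at 19.74 and 18.89 TPM at P9.

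The fractions compare cell types within a differentiation. At P5, *TGFB2* was at 59.57, 60.12 and 41.64 TPM in EPI and at 27.73, 31.3 and 9.61 TPM in MES, and *TGFBI* at 883.67, 1435.42 and 879.26 TPM in EPI and at 375.33, 812.66 and 195.51 TPM in MES. Both were lower in MES in 3 of 3 differentiations, without overlap of the groups. *TGFB3* went the other way, with 0.83, 2.05 and 2.42 TPM in EPI and 4.24, 5.65 and 4.25 TPM in MES. *TGFBR2*, with 4.75, 7.35 and 7.61 TPM in EPI and 9.49, 11.57 and 12.86 TPM in MES, was higher in MES in 3 of 3 and did not overlap. *TGFBR3*, with 1.83, 4.47 and 7.11 TPM in EPI and 6.24, 12.81 and 14.78 TPM in MES, was higher in each differentiation while its groups overlapped. With *TGFBR1*, 5 members had groups that did not overlap, which 36.2% of genes with 100 or more counts shared.

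None of the 8 members passed in P5 MES against P5 EPI, and none of 18924 genes tested did (0.0%), although 4862 genes had an unadjusted p under 0.05, 5 members among them. The log2 fold changes of those 5 were -1.35 ± 0.26 for *TGFB2* (edgeR adjusted p = 0.024), -1.31 ± 0.34 for *TGFBI* (0.053), 0.83 ± 0.13 for *TGFBR2* (0.017), 1.39 ± 0.40 for *TGFBR3* (0.071) and 1.65 ± 0.56 for *TGFB3* (0.11). DESeq2 with the same block called 672 genes (3.55%), *TGFB2*, *TGFBI* and *TGFBR3* among them. *TGFBR1* (0.24, 95% interval -0.03 to 0.52), *TGFB1* (-0.12, -1.01 to 0.77) and *LTBP1* (-0.06, -0.40 to 0.28) had intervals that held 0. For *LTBP1* that interval leaves no room for a fold change of 2. The share of *TGFB3* in the ligand TPM was 3.08 ± 1.85% in EPI and 16.03 ± 6.69% in MES, and that of *TGFB2* 88.0 ± 2.45% and 66.7 ± 11.8%.

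**Figure D3:**
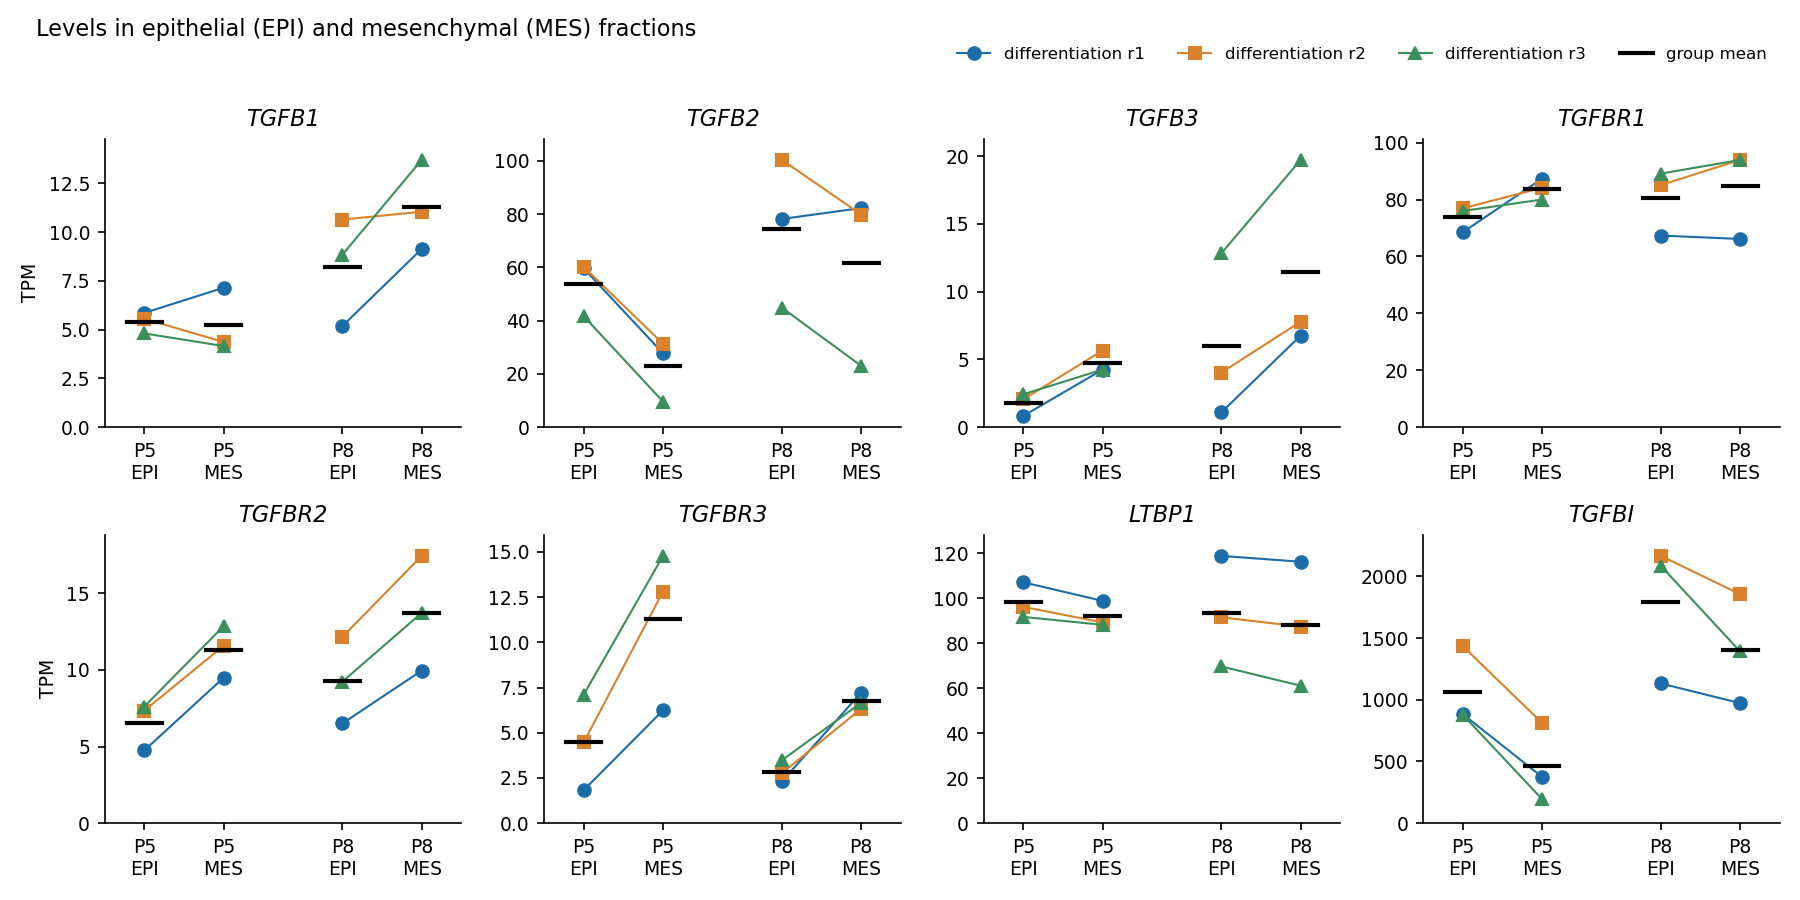
TPM of the 8 genes in the EPI and MES fractions of P5 and P8, with lines joining fractions of the same differentiation and bars at the group means (n = 3). At P5, *TGFB2* and *TGFBI* are lower and *TGFB3*, *TGFBR2* and *TGFBR3* higher in MES in all 3 differentiations, and *LTBP1* lies between 88.15 and 107.06 TPM in both.

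At P8 the log2 fold changes of *TGFB2* (-0.46 ± 0.25) and *TGFBI* (-0.36 ± 0.33) between the fractions did not pass either. *TGFB2* was at 78.17, 100.34 and 44.85 TPM in EPI and at 82.24, 79.82 and 23.02 TPM in MES, and *TGFBI* at 1132.3, 2166.07 and 2084.87 TPM in EPI and at 972.59, 1855.38 and 1391.69 TPM in MES, with overlap in both. *TGFBR3* was the 1 member whose groups did not overlap, with 2.31, 2.76 and 3.48 TPM in EPI and 7.22, 6.33 and 6.66 TPM in MES (1.39 ± 0.41, edgeR adjusted p = 0.31), and the groups of 9.15% of genes with 100 or more counts did not overlap. *TGFBR2* was higher in MES in 3 of 3 (0.54 ± 0.13, edgeR adjusted p = 0.28), with overlap. No member and no gene passed (0.0% of 18924), 2275 genes had an unadjusted p under 0.05 with 2 members among them, and DESeq2 called 54 genes (0.285%) and no member.

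Whether MES and EPI differed less at P8 than at P5 was tested as the difference of both differences. For *TGFB2* it was 0.90 (95% interval 0.09 to 1.70, edgeR adjusted p = 0.83) and for *TGFBI* 0.95 (-0.13 to 2.03, adjusted p = 0.84). No member and no gene passed (0.0%), 1125 genes had an unadjusted p under 0.05, *TGFB2* among them, and DESeq2 called 1 gene (0.00528%). For *TGFBR3* the difference was -0.004 with an interval from -1.34 to 1.33. The median log2 fold change of the 8 neural crest and mesenchymal markers was 2.07 at P5 and 0.69 at P8, and that of the 5 pre-neural markers -1.75 and -0.85. Their sums did not overlap between the fractions at P5 and overlapped at P8, at 116.5 to 848.8 TPM in EPI and 341.0 to 1212 in MES for neural crest and 185.3 to 644.8 and 51.77 to 446.0 TPM for the pre-neural markers. The part of these markers in the values of the members was not tested.

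**Figure D4:**
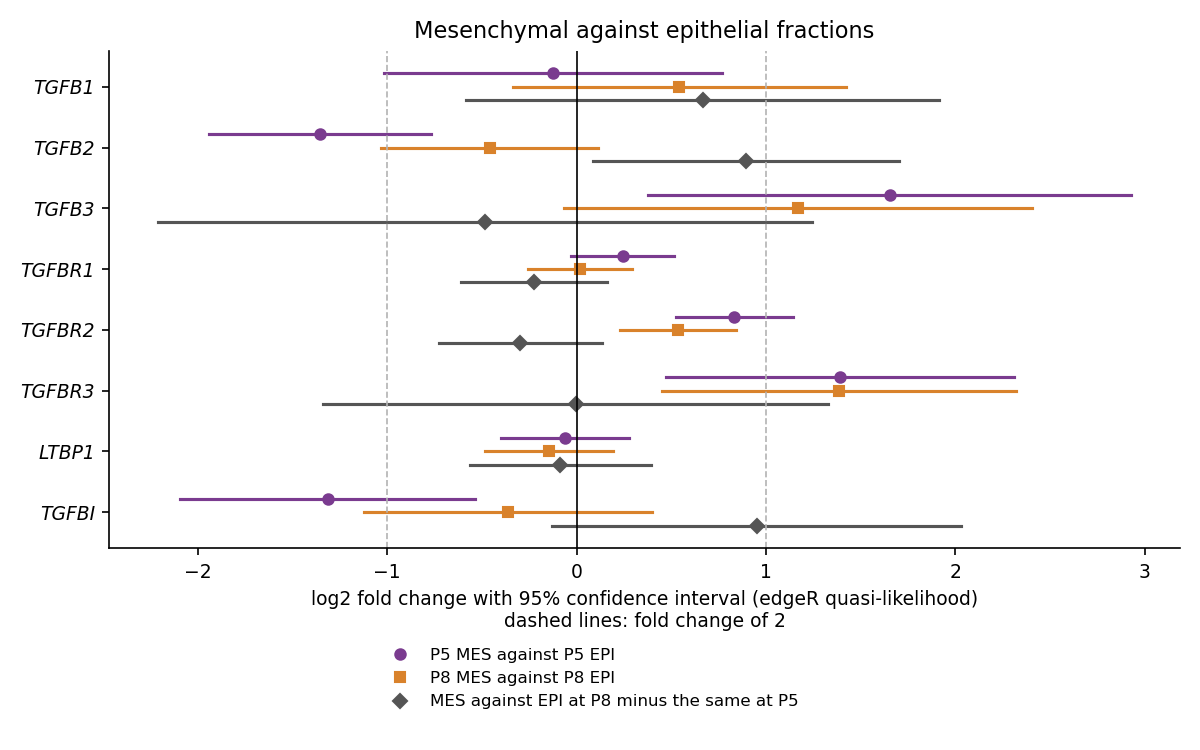
Log2 fold changes with 95% confidence intervals for MES against EPI at P5 (circles), at P8 (squares) and for their difference (diamonds), with dashed lines at a fold change of 2. *TGFB2* (-1.35) and *TGFBI* (-1.31) lie to the left at P5, and the interval of the difference holds 0 for 7 of the 8 genes, *TGFB2* being the exception.

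Within the mesenchymal fraction, P8 against P5 gave 0 of 8 members and 148 of 18924 genes (0.782%). *TGFBI* was higher at P8 in 3 of 3 differentiations (1.76 ± 0.35, edgeR adjusted p = 0.021), and *TGFB2* (1.41 ± 0.25, adjusted p = 0.016) and *TGFB1* (1.54 ± 0.40, adjusted p = 0.046) were higher in 3 of 3 too. DESeq2 called these 3 and 3.99% of genes, and edgeR had 5688 genes at an unadjusted p under 0.05. Without r1, *TGFBR3* passed as lower at P8 (-1.395 ± 0.147), where it was -0.67 ± 0.41 with all libraries. In MES, *TGFB1* was at 7.15, 4.37 and 4.16 TPM at P5 and at 9.14, 11.05 and 13.71 TPM at P8. Cell type markers had unadjusted p under 0.05 in the same comparison without passing. Among them were *CDH1* (3.68 ± 0.47, at 0.13 and 0.60 TPM), *EPCAM* (1.43 ± 0.34), *PAX3* (1.53 ± 0.26) and the neural crest marker *FOXD3* (2.59 ± 0.54) above 0 and *DPPA4* (-2.28 ± 0.35) below. By list, at that p, 0 of 4 pluripotency markers were higher and 2 lower, 0 and 2 of 4 NMP, 2 and 1 of 5 pre-neural, 3 and 1 of 8 neural crest, 1 and 0 of 5 paraxial mesoderm, 0 and 1 of 4 neuron, 2 and 0 of 3 endothelial and 2 and 0 of 3 smooth muscle markers. Their part was not tested. Within the epithelial fraction 0 of 8 members and 50 genes (0.264%) passed by edgeR, DESeq2 called 615 genes (3.25%) and no member, and of 5863 genes with an unadjusted p under 0.05 the 3 members *TGFBR2*, *TGFBI* and *TGFB3* had log2 fold changes of 0.55, 0.81 and 1.43. In EPI at that p, 0 of 4 pluripotency markers were higher and 2 lower, 0 and 3 of 4 NMP, 1 and 2 of 5 pre-neural and 5 and 0 of 8 neural crest. The same counts were 2 and 1 of 5 paraxial mesoderm, 1 and 1 of 4 neuron, 2 and 0 of 3 endothelial and 1 and 0 of 3 smooth muscle markers. Of the neural crest markers 1 passed, as higher (list median 1.65). The part of the markers was not tested.

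Of the other genes of the pathway none passed between the fractions by edgeR. At P5 the median log2 fold change was 1.53 over 20 response genes, 1.55 over 9 coreceptor and inhibitor genes, 0.71 over 14 latency and activation genes and 0.03 over 16 SMAD and feedback genes, against -0.01 over all genes tested. At an unadjusted p under 0.05, 12, 5, 7 and 3 of them were higher in MES and 1, 1, 2 and 1 lower, where 4862 of all 18924 genes tested had such a p in either direction. DESeq2 called 6 response genes, 2 coreceptor and inhibitor genes and 3 latency and activation genes, all higher in MES, and 3.55% of all genes. At P8 the medians were 0.99, 0.94, 0.44 and 0.01. From P5 to P8 in MES, 4 list genes passed, all higher: *FN1* (fibronectin, 1.73 ± 0.26), *COL5A1* (a fibrillar collagen, 1.63 ± 0.23), *TIMP1* (a protease inhibitor, 1.29 ± 0.18) and *CDKN1A* (a cell cycle inhibitor, 1.20 ± 0.18), which were chosen after their values were seen. None of the 4 passed without r2, without r3 or without the replicate block. Several response genes are also general mesenchymal genes, and the summed TPM of the neural crest and mesenchymal markers ran from 80.26 to 300.2 in P5 EPI and from 522.8 to 689.4 in P5 MES. The part of that difference in these values was not tested.

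**Figure D5:**
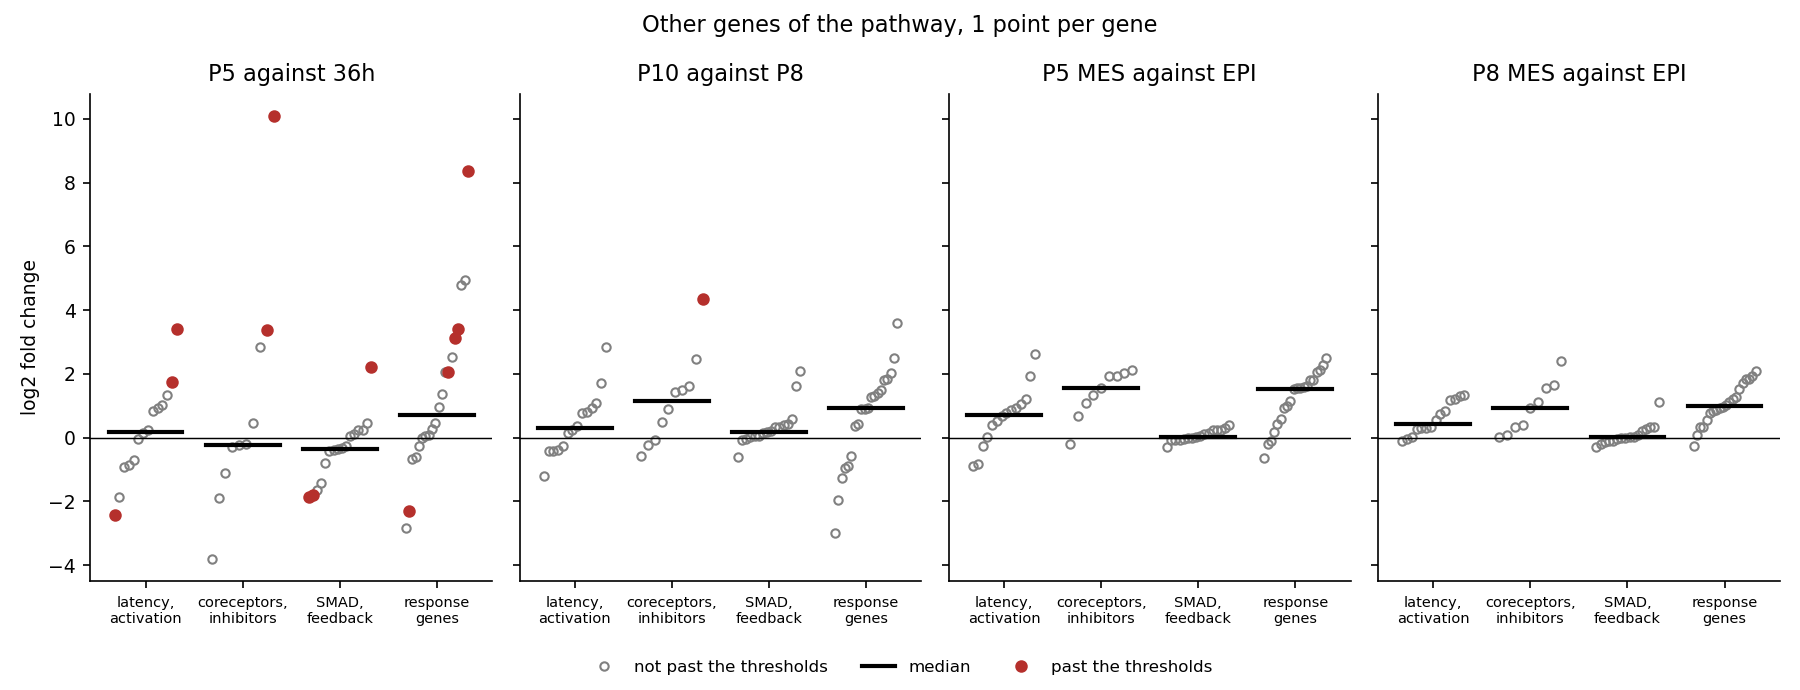
Log2 fold change of each tested gene of 4 pathway lists (1 point per gene, sorted within its list) in 4 comparisons, filled where it passed and open where it did not, with the list median as a bar. From 36h to P5, 9 genes rose and 4 fell, from P8 to P10 *BAMBI* passed, and in the fractions no point is filled while the medians of the response genes are 1.53 and 0.99.

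Likeness of course was described by Pearson's r of mean log2 CPM, a depth-scaled count, over the 16 groups, among 13297 genes with 100 or more normalized counts on average. The groups share libraries and depth, and fractions repeat the passages they came from, so r is given as a description. *TGFB2* was most like *GDF11* (r = 0.987), then *CCDC140* (0.982) and *KLHL29* (0.978). *TGFBI* was most like *HOXA11-AS* (0.988), *HOXD10* (0.982) and *ARHGEF28* (0.982), and *LTBP1* most like *PDX1* (0.981), *CNTNAP4* (0.970) and *ADAMTS18* (0.968). *TGFB1* had *MYO3B* (0.937), *RAP2B* (0.932) and *SPTLC3* (0.908), and *TGFB3* had *AC135983.2* (0.976), *CSPG4P12* (0.973) and *PCDHB2* (0.969). The nearest genes were *SESTD1* (0.973), *ZFYVE16* (0.958) and *INPP4B* (0.957) to *TGFBR1* and *FRMD4A* (0.977), *JAK1* (0.971) and *PPFIBP2* (0.968) to *TGFBR2*. *TGFBR3* had no course as close, with *UTRN* (0.811), *AC011603.2* (0.805) and *PIGA* (0.804). Within the set, r was highest between *TGFB2* and *TGFBI* (0.932) and between *TGFB3* and *TGFBR2* (0.917), and *TGFB1* was negative with all others, down to -0.72 with *LTBP1*.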

How the data were processed

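RNA of 47 WA09 samples (35 whole cultures, 12 fractions) was sequenced as polyA-selected single-end libraries. Per the labels, the submitters' processing notes name cutadapt 1.16, STAR 2.5.2b, RSEM 1.3.0 and GRCh38. The annotation release and the strand setting are not given in the sources used here. The authors deposited RSEM expected counts per gene, which divide reads between genes (9.33% were not whole), TPM, which scale them by effective length and library, and the effective lengths as another column. Of 58051 genes, 57447 matched GENCODE 29, from which symbols and coordinates come.

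Expected counts were rounded and normalized with TMM factors over all libraries. Groups were compared with edgeR 4.0.16 (glmQLFit, glmQLFTest; limma 3.58.1, R 4.3.3) after filterByExpr, with the whole cultures in 1 fit and the fractions in another. The replicate number was a block, because the series' design text ties all samples of a number to 1 experiment. Deviations of libraries with the same number correlated with a mean r of 0.213 over 105 pairs of groups. The mean r of -0.105 for other numbers nearly follows from it, since deviations within a group cancel, and is no further support. In 37 of the 105 pairs every r for the same number was over 0.1, and t0 with 36h had a mean of -0.008. SE is |log2 fold change| divided by the root of F. DESeq2 1.42.0, other filters, fits and thresholds and leaving out replicates were alternatives. The fit of the fractions was tested on simulated counts for P5 MES against EPI. Members and lists were chosen with earlier results of these data known. Named list genes are those past the thresholds with the largest changes, up to 3 per direction, list and main comparison, and the 3 genes most like each member. Precision covers counting error and the spread of 3 differentiations of 1 line.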

Additional observations from a re-analysis of the deposited data

How the results depend on the processing

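In 10 comparisons, which leave out the other pairs against t0 and the other steps between neighbouring time points, a member's log2 fold change had 1035 values under an alternative. Of these, 971 kept their direction and their side of the thresholds, 29 passed where they had not, 6 no longer passed and 29 changed sign, none of the last being a value that had passed. The 30 pairs against t0 came to between 20 and 37 under the alternatives. They were 21 with at least 10 counts required in every library, which leaves *TGFB2* untested. Without the replicate block the pairs against t0 were 31 and those between neighbouring time points 0. The block changed no other count of members.

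Members that passed, 0 by the test used here unless said, were as follows. With DESeq2 and the block there was 1 for 36h against t0 (*TGFB1*), 1 for P9 against P8 (*TGFB3*), 1 for P10 against P8 (*TGFBR2*), 3 for P5 MES against EPI, 3 for P8 against P5 in MES and 4 pairs of neighbouring time points in place of 1. At an adjusted p under 5% the same counts were 1, 2, 1, 1, 3 and 4. DESeq2 called 3.93%, 3.64%, 1.3%, 3.55% and 3.99% of all genes in the comparisons named, in that order. With all 47 libraries in 1 fit there was 1 each for P9 and P10 against P8 and 2 pairs of neighbours. With at least 10 counts in every library there was 1 for P9 against P8 and 2 pairs of neighbours. Without a count filter there was 1 for P8 against P5 in MES (*TGFB2*). With only the compared groups in the fit there was 1 for P5 MES against EPI (*TGFBR3*). The cause was not tested, other than the lower threshold itself. Where no share of all genes stands beside a count in this section, the count describes the setting and is no result about the members.

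Leaving out a replicate gave 2 to 5 members for P5 against 36h, 0 to 3 for P10 against P8, 0 to 1 for P8 against P5 in MES and 0 to 1 pairs of neighbours. The 5 for P5 against 36h were 2 without r2 and 2 without r3, *TGFB2* and *TGFBI* both times. Counts over all genes moved more: the 19 genes of P10 against P8 were 914 without r1, 834 without P10 r1 and 0 without r2 or r3.

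In these 10 comparisons signs turned in values that had not passed. Leaving out a replicate gave, for 36h against t0, -0.43 to 1.66 for *TGFB3*, -0.052 to 0.276 for *TGFBR1*, -0.035 to 0.296 for *LTBP1* and -0.41 to 0.199 for *TGFBI*. For P8 against P5 it gave -0.062 to 0.151 for *TGFBR1* and -0.073 to 0.107 for *LTBP1*, and for P9 against P8 -1.32 to 0.464 for *TGFBR3*. For P10 against P8 it gave -0.382 to 0.837 for *TGFB1*, -1.12 to 0.611 for *TGFB2*, -0.18 to 0.874 for *TGFBR3* and -0.142 to 0.746 for *TGFBI*. In the fractions it gave -0.51 to 0.08 for *TGFB1* (P5 MES against EPI), -0.016 to 0.066 for *TGFBR1* (P8 MES against EPI), -0.121 to 0.118 for *LTBP1* (P8 against P5 in EPI), -0.15 to 0.129 for *TGFBR1* and -0.31 to 0.118 for *LTBP1* (P8 against P5 in MES), and -0.45 to 0.18 for *TGFBR3* in the difference of differences. *TGFBI* at 36h was -0.052 without the replicate block and -0.12 with only the compared groups. In P8 against P5, *TGFBR1* was -0.009 and *LTBP1* -0.003 with DESeq2's size factors and with DESeq2, and *LTBP1* -0.008 with only the compared groups. *TGFB2* in P10 against P8 was 0.025 with all 47 libraries.

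Of 128 mean TPM values, 4 moved by more than their SD when rescaled by TMM factors. The precision is set by 3 differentiations, with 2 at P9, where leaving out r1 or r2 leaves 1 library, assumed to vary like the other groups.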
